A study of Homo sapiens with 2 samples.

Results

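Matrix metalloproteinases (MMPs) and their tissue inhibitors (TIMPs) were described in the human breast cancer line MDA-MB 231 with and without a transfected S100A7 gene, from all probe sets annotated to MMP1, MMP2, MMP3, MMP9, MMP10, MMP13, MMP14, TIMP1, TIMP2 or TIMP3 alone. These 10 genes had 20 of the 54675 probe sets on each array. A single array was made from cells stably transfected with S100A7 sub-cloned into the plasmid pIRES2-EGFP, and a single one from cells stably transfected with the plasmid alone, called vector cells here. MDA-MB 231 is a highly invasive line that lacks the estrogen receptor, and S100A7 (psoriasin) is a small calcium-binding protein known from inflamed skin. Both cultures were grown in DMEM with 10% fetal bovine serum, and the labels do not say whether either stable line came from 1 clone. A confluence of 70 to 80% is given for the vector culture and none for the S100A7 culture. The series was made to find genes regulated by S100A7.

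MMPs are zinc-dependent endopeptidases that cut collagens and other proteins around cells. Most are secreted as inactive proenzymes, and a few, such as MMP14, stay in the cell membrane. TIMPs bind the active site of MMPs and block it, and TIMP2 also links proMMP2 to MMP14 on the cell surface, where it is activated. In breast tumours, MMPs are made by cancer cells and by stromal fibroblasts and leukocytes. The arrays measured RNA and not enzyme activity.

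The transfected gene was at 13232 on the S100A7 array and at 11.99 on the vector array, at least 186-fold higher. Intensities are the deposited MAS5 signals, in arbitrary units. Each array's 50th percentile, 69.0 on the S100A7 array and 71.0 on the vector array, served as a floor: probe sets under it on both arrays were set aside as not measured, and in the others any value under the floor was raised to it before a ratio was taken. With 1 array per group there was no test, no p-value and no spread between cultures, so genes were counted by a change of at least 2-fold. The standard deviation between probe sets of the same gene, 0.36 on the log2 scale over 6465 genes, was the only spread at hand. In bulk RNA, fewer cells of a type and less RNA per cell cannot be told apart.

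The markers listed for MDA-MB 231 cells (VIM, CD44, EGFR, CAV1 and AXL) were measured for 5 of 5 genes, with 0 outside 2-fold. Of 7 luminal and epithelial markers 3 were measured on both arrays, each within 2-fold: ERBB2 read 540 on the S100A7 array and 497 on the vector array, EPCAM 513 on the S100A7 array and 544 on the vector array, and GATA3 752 on the S100A7 array and 719.7 on the vector array. The other 4, ESR1 (the estrogen receptor), PGR, CDH1 (E-cadherin) and FOXA1, did not reach the floor. Of 7 fibroblast markers 3 were measured, and the brightest probe sets of the 7 summed to 818 on the S100A7 array and 1108 on the vector array. The lower sum came from the brightest probe set of COL1A1 (log2 ratio -0.79), whose other measured probe sets were higher (0.76 and 0.42). COL1A2 and PDGFRB were higher by at least 0.33 and 0.71 on the log2 scale, with vector values under the floor. The other fibroblast markers listed, COL3A1, DCN, LUM and PDGFRA, did not reach the floor. Of 7 leukocyte markers 2 were measured, ITGB2 and CSF1R, and 0 were outside 2-fold, with sums of 532 and 455 on the S100A7 and vector arrays. PTPRC, TYROBP, LYZ, CD14 and CD3E did not reach the floor. The 5 endothelial markers, 2 of them measured (1 as a lower bound), summed to 317 and 252 on the S100A7 and vector arrays. No marker listed had an intensity of exactly 0.

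Of the 10 genes, 7 were measured, with 15 of the 20 probe sets reaching the floor. MMP1 and MMP9 were more than 3-fold higher on the S100A7 array, and MMP3 was just over 2-fold lower. MMP14 and TIMP1 were lower and TIMP3 was higher by smaller amounts, between 1.5-fold and 2-fold, and TIMP2 differed by less than that. MMP2, MMP10 and MMP13 did not reach the floor on either array. The 2 members at least 2-fold higher compare with 1.8% of the 12688 measured genes, and the 1 member at least 2-fold lower with 2.25%. The median log2 ratio of the 7 measured members was 0.30, beside -0.04 over all measured genes, and 4 of the 7 ratios were above 0.

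**Figure D1:**
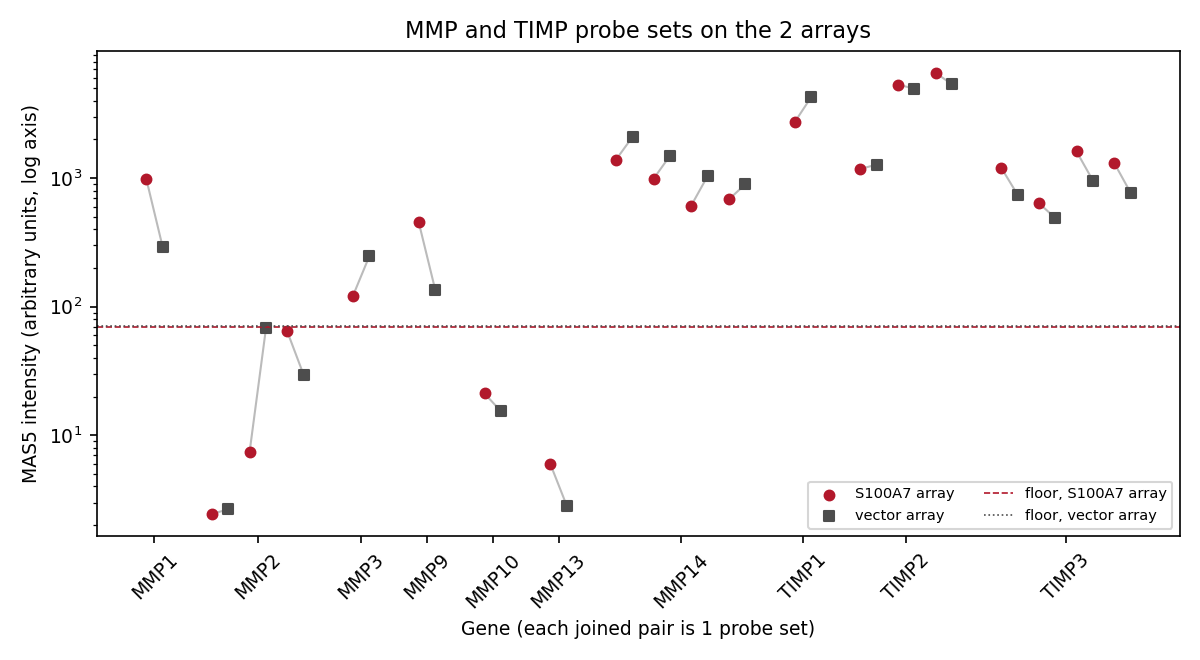
MAS5 intensity of each of the 20 MMP and TIMP probe sets on a log axis, with red circles for the S100A7 array, grey squares for the vector array and a line joining the values of 1 probe set. The floors (dashed, 69.0, and dotted, 71.0) nearly overlap; all probe sets of MMP2, MMP10 and MMP13 lie below them on both arrays, while those of MMP14 and TIMP3 tilt in opposite directions.

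The RefSeq promoter table (build GRCh38.p14) held 4 of the 10 genes: MMP10, MMP14, TIMP1 and TIMP3. All 4 are shown, with no choice by level. MMP10 lies next to MMP1, and MMP14, TIMP1 and TIMP3 are members that differed by at least 1.5-fold. MMP1, MMP9 and MMP3, the members at least 2-fold apart, were not held there, so their promoters are not shown. Each sequence is the 250 bases before the gene's start, written 5′ to 3′ on the strand of the gene, and capitals mark matches to motifs searched on both strands. They lie at chr11:102780629-102780878 (minus strand) for MMP10, chr14:22836335-22836584 (plus) for MMP14, chrX:47582186-47582435 (plus) for TIMP1 and chr22:32801455-32801704 (plus) for TIMP3.
MMP10: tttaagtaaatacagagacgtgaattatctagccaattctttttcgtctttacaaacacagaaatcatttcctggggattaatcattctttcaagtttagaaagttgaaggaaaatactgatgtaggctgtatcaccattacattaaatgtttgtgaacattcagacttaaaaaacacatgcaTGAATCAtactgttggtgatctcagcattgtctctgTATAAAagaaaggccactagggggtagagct
MMP14: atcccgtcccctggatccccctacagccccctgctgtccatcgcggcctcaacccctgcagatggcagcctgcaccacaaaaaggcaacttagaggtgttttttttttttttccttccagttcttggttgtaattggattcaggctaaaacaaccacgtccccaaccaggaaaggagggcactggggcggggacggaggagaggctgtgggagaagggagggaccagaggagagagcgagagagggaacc
TIMP1: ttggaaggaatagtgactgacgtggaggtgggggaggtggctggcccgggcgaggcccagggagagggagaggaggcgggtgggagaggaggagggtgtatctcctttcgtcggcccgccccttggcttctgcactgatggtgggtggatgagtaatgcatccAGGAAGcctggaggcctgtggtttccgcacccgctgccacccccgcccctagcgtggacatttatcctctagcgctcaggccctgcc
TIMP3: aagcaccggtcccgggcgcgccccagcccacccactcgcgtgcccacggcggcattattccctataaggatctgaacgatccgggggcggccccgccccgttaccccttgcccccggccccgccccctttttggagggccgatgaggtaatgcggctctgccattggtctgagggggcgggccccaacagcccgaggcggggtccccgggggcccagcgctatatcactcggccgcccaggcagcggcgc
The motifs were TGANTCA for AP-1 (the dimer of FOS and JUN proteins), AGGAAG for ETS factors, TATAAA for the TATA box, and the NF-kB consensus. The MMP10 stretch held an AP-1 match from 67 to 61 bases before the start and a TATA box match from 31 to 26 bases before it. The TIMP1 stretch held an ETS match from 87 to 82 bases before the start. The MMP14 and TIMP3 stretches held no match in this window. Among stretches of the same length before 35116 genes, 6.57% held the AP-1 motif, 28.7% the ETS motif, 10.7% the TATA box and 9.96% the NF-kB consensus. A match here describes the letters, and whether it is a working site was not tested. The MMP10 stretch was 34.4% G and C, that of MMP14 56.8%, that of TIMP1 64.8% and that of TIMP3 72.4%, against a median of 58% over all promoters.

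Among the collagenases, which cut fibrillar collagen, MMP1 (interstitial collagenase) read 988 on the S100A7 array and 291 on the vector array. Its probe set, 204475_at, was 3.40-fold higher, a log2 ratio of 1.76, and was above the floor on both arrays. Only 33 of the 12688 measured genes had a higher ratio. With genes split by intensity into 3 equal parts, MMP1 lay in the middle one, where 2.01% were at least 2-fold higher. The 40 nearest measured genes on chromosome 11 had a median log2 ratio of -0.12, and MMP1 stood 1.89 above it. MMP13 (collagenase 3) read 5.99 on the S100A7 array and 2.84 on the vector array, both far below the floor, so no fold is given.

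The gelatinases, which degrade denatured collagen and collagen IV of basement membranes, were read at different levels relative to the floor. MMP9 (gelatinase B) read 453 on the S100A7 array and 136 on the vector array. It was 3.33-fold higher, a log2 ratio of 1.74, with 35 measured genes above it. Its vector intensity was less than 2 times the floor. By the geometric mean of both arrays, MMP9 lay in the dimmest of the 3 parts, where 2.84% were at least 2-fold higher. The 1 probe set of MMP9, 203936_s_at, carries the suffix _s_at, which can mark probes shared by several transcripts, and no other probe set was there to compare it with. Raising the floor to the 70th percentile turned the ratio into a lower bound of 0.68 on the log2 scale.

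MMP2 (gelatinase A), a gene typical of stromal fibroblasts, was below the floor on both arrays with all 3 of its probe sets. The probe set 201069_at read 64.4 on the S100A7 array and 29.5 on the vector array. The probe set 1566678_at went the other way, at 7.43 on the S100A7 array and 68.6 on the vector array, and 1566677_at read 2.45 and 2.65 on them. The 3 probe sets thus disagreed in direction at a level where no ratio was taken.

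The stromelysins have a broad range of substrates and can activate other proMMPs, proMMP1 and proMMP9 among them. MMP3 (stromelysin-1) read 121 on the S100A7 array and 248 on the vector array, 2.04-fold lower, a log2 ratio of -1.03. This was close to the 2-fold line: the log2 ratio was -0.99 after centring on the median of all measured genes and -0.90 relative to its chromosomal neighbours, both under 2-fold. In the dimmest of the 3 parts by intensity, where MMP3 lay, 4.54% were at least 2-fold lower. MMP10 (stromelysin-2) read 21.1 on the S100A7 array and 15.4 on the vector array. Its probe set was therefore below the floor on both. A link between its level and the AP-1 and TATA box letters shown above was not tested.

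**Figure D2:**
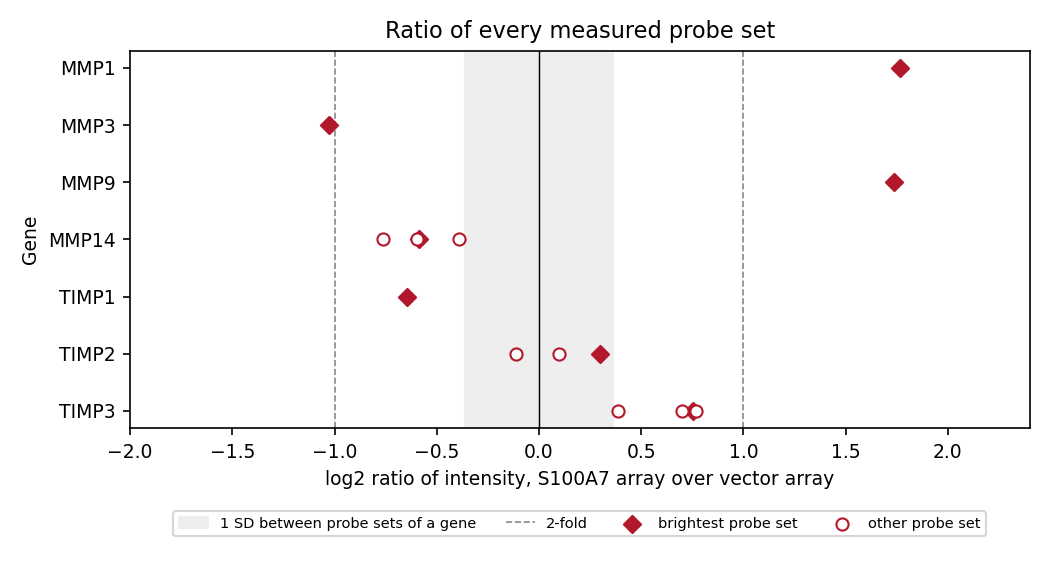
Log2 ratio of intensity, S100A7 array over vector array, for the 15 measured MMP and TIMP probe sets, by gene; filled diamonds are the brightest probe set of a gene, open circles the others, the grey band is 1 standard deviation of probe sets within a gene (0.36 on either side of 0), and dashed lines mark 2-fold. MMP1 and MMP9 lie to the right of 2-fold and MMP3 just to the left of it, while the 4 probe sets of MMP14 are all below 0 and the 4 of TIMP3 all above 0.

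MMP14 (MT1-MMP), the membrane-bound collagenase that activates proMMP2, was lower with all 4 of its probe sets. The brightest, 160020_at, read 1392 on the S100A7 array and 2089.97 on the vector array, a log2 ratio of -0.59. The probe set 202827_s_at read 989 on the S100A7 array and 1495 on the vector array, and 202828_s_at read 611 and 1038 on them. The fourth, 217279_x_at, read 682 on the S100A7 array and 895 on the vector array. The log2 ratios ran from -0.77 to -0.39, each farther from 0 than the spread of 0.36 between probe sets of a gene. That spread does not measure variation between cultures, and none of the ratios reached 2-fold. Agreement in direction alone was common: among 1327 genes with at least 4 measured probe sets, 15.5% had all of them lower, by any amount. Agreement at the size seen for MMP14 was not counted. The 40 nearest measured genes on chromosome 14 had a median log2 ratio of -0.28, and MMP14 stood 0.31 below it; the part of this regional shift in the result was not tested.

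The inhibitors did not move together. TIMP1, a secreted inhibitor of many MMPs that binds proMMP9, read 2713 on the S100A7 array and 4245 on the vector array. Its probe set, 201666_at, was 1.56-fold lower, a log2 ratio of -0.65. Its 40 nearest measured genes on the X chromosome had a median log2 ratio of -0.44, so TIMP1 stood 0.21 below its neighbours. A lower TIMP1 signal was thus accompanied by lower signals of the genes around it, whose part in the result was not tested.

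TIMP3, the inhibitor that stays bound to the extracellular matrix and also blocks ADAM proteases, was higher with all 4 of its probe sets. The brightest, 201149_s_at, read 1611 on the S100A7 array and 955 on the vector array, 1.69-fold higher, a log2 ratio of 0.76. The probe set 201150_s_at read 1315 on the S100A7 array and 771 on the vector array, and 201147_s_at read 1199 and 738 on them. The dimmest, 201148_s_at, read 638 on the S100A7 array and 488 on the vector array. The log2 ratios ran from 0.39 to 0.77, and 3 of the 4 exceeded 1.5-fold. Among genes with at least 4 measured probe sets, 19.4% had all of them higher, by any amount. Its chromosomal neighbours had a median log2 ratio of -0.13, and TIMP3 stood 0.88 above it. All 4 probe sets carry the suffix _s_at.

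TIMP2, which both inhibits MMPs and helps MMP14 activate proMMP2, showed no shared direction. Its brightest probe set, 231579_s_at, read 6581 on the S100A7 array and 5353 on the vector array, a log2 ratio of 0.30. The probe set 224560_at read 5318 on the S100A7 array and 4961 on the vector array, and 203167_at read 1179 and 1272 on them. The log2 ratios of these 2 were 0.10 and -0.11, so all 3 values lay within the spread between probe sets of a gene.

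At a threshold of 1.5-fold, 3 members were higher (MMP1, MMP9 and TIMP3) and 3 lower (MMP3, MMP14 and TIMP1). Over all measured genes, 8.12% were higher by this threshold and 10% lower. At 3-fold, MMP1 and MMP9 remained and 0 members were lower, where 0.37% of measured genes were higher and 0.433% lower. Proteases and inhibitors were on both sides at 1.5-fold: of the 4 measured MMPs, MMP1 and MMP9 were higher and MMP3 and MMP14 lower, and of the 3 TIMPs, TIMP3 was higher and TIMP1 lower. MMP14 only just passed, at 1.502-fold lower. Its log2 ratio was -0.55 after median centring and -0.31 relative to its neighbours, under 1.5-fold in either case. TIMP1, at -0.21 relative to its neighbours, was under 1.5-fold there too.

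**Figure D3:**
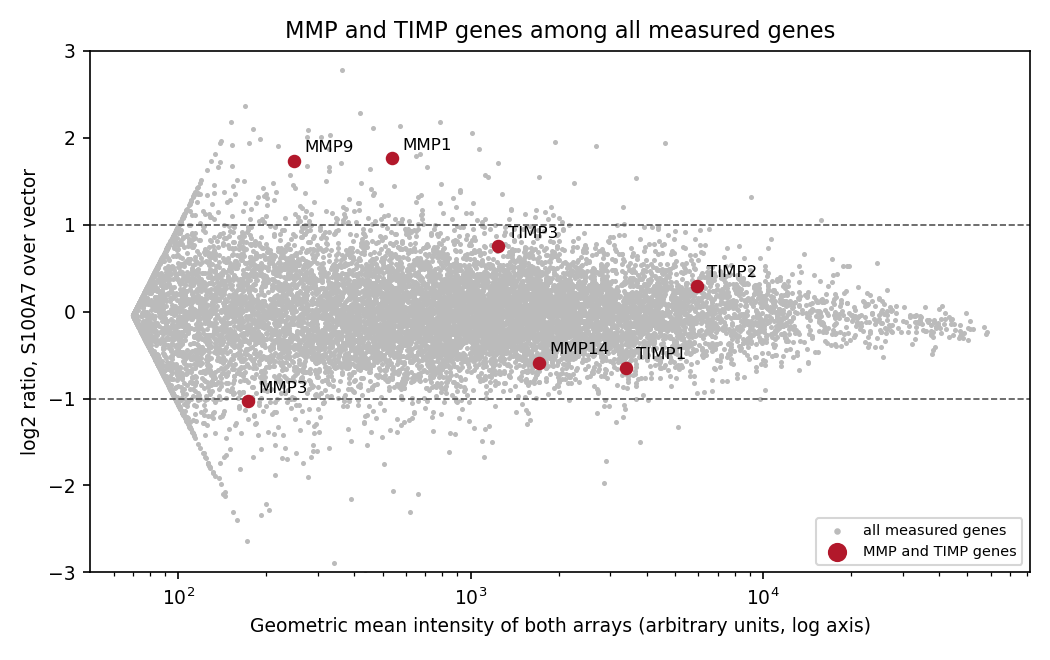
Log2 ratio, S100A7 array over vector array, against the geometric mean intensity of both arrays after the floor (log axis) for each measured gene in grey, with the 7 measured MMP and TIMP genes in red and dashed lines at 2-fold; 12 genes lie beyond the plotted range of ratios. MMP1 and MMP9 stand near the upper edge of the genes of like intensity, MMP3 at the 2-fold line among dim genes, and MMP14, TIMP1, TIMP2 and TIMP3 within 2-fold.

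MMP1 and MMP3 lie side by side in a cluster of 9 MMP genes on chromosome 11, which holds 0 other protein-coding genes in the RefSeq gene order. In that order the genes are MMP7, MMP20, MMP27, MMP8, MMP10, MMP1, MMP3, MMP12 and MMP13. Of the 9, 3 were measured: MMP1, MMP3 and MMP8 (neutrophil collagenase). MMP8 read 39.8 on the S100A7 array, below the floor, and 77.2 on the vector array, just above it, at least 1.12-fold lower. MMP7 (matrilysin) read 31.6 on the S100A7 array and 7.78 on the vector array, and MMP12 (macrophage elastase) read 37.4 and 30.2 on them. MMP27 read 40.2 on both arrays, and MMP20 (enamelysin) 3.64 on the S100A7 array and 0.823 on the vector array. Neighbours in the cluster thus differed: MMP1 was higher, MMP3 lower, and the 6 genes with no measured probe set had no ratio.

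**Figure D4:**
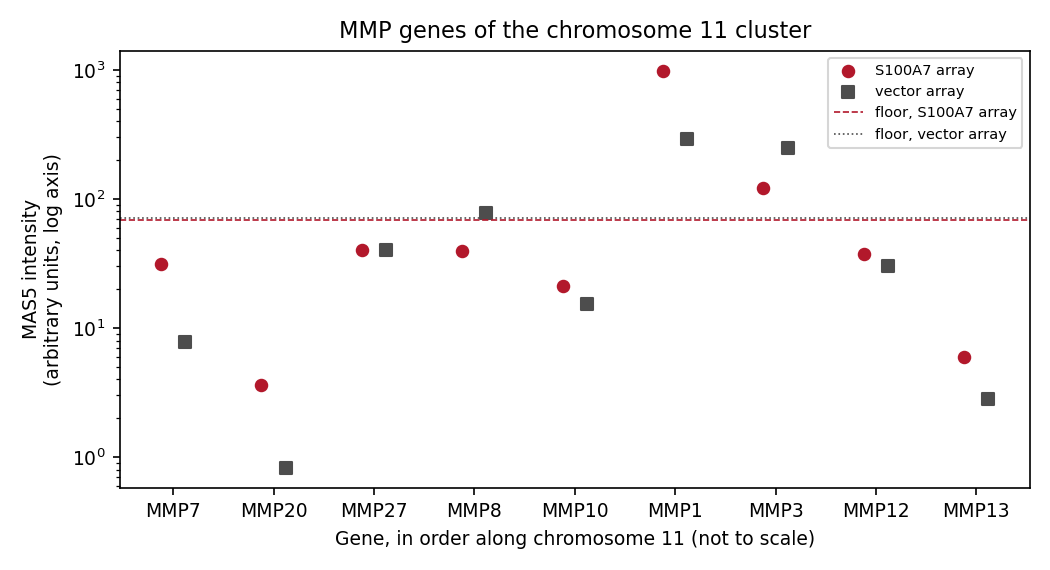
MAS5 intensity on a log axis of the brightest probe set of each of 9 MMP genes, in their order along chromosome 11 (spacing not to scale), with red circles for the S100A7 array, grey squares for the vector array and the floors as dashed and dotted lines. MMP1 and MMP3, next to each other, lie above the floor on both arrays and differ in opposite directions, while MMP8 is above it on the vector array alone.

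In the rest of the family no ratio reached 2-fold, but not all were fully measured. Of 17 genes listed, namely other MMPs and TIMP4, 16 had a probe set of their own and 8 were measured, 4 with a log2 ratio above 0 and 4 below, and their median was 0.16. For 6 of the 8 both values were above the floor and within 2-fold, while MMP8 and MMP15 had only lower bounds, so a larger difference was not measurable. Named after their values were seen, 2 of them were MMP15 (MT2-MMP) and MMP16 (MT3-MMP), which like MMP14 are membrane-bound. MMP15 read 122 on the S100A7 array and 37.1 on the vector array, below the floor, at least 1.72-fold higher. MMP16 read 123 on the S100A7 array and 189 on the vector array, a log2 ratio of -0.62. TIMP4, also named after its value was seen, read 162 on the S100A7 array and 112 on the vector array, a log2 ratio of 0.53.

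Of 15 other genes that regulate MMP activity, 12 were measured, of which 1 exceeded 2-fold upward and 0 downward. The higher one was THBS2, thrombospondin-2, a matricellular protein that binds MMP2 and helps cells take it up. It read 752 on the S100A7 array and 291 on the vector array, 2.58-fold higher with its 1 probe set. These 12 genes had a median log2 ratio of -0.05, with 9 within 2-fold above the floor on both arrays and 2, LRP1 and TNXB, known only as bounds under 2-fold. These 2 and the genes that follow were named after their values were seen. FURIN, the convertase that removes the propeptide of MMP14, read 529 on the S100A7 array and 915 on the vector array, 1.73-fold lower. RECK, a membrane-anchored MMP inhibitor, had 4 measured probe sets that disagreed, with log2 ratios of 0.34 for the brightest and 0.38, -0.33 and -0.50 for the others. BSG (EMMPRIN), which induces MMPs in neighbouring fibroblasts, had a log2 ratio of -0.11. LCN2, the lipocalin that binds MMP9 and protects it from degradation, read 85.2 on the S100A7 array and 126 on the vector array, a log2 ratio of -0.57.

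Of 16 transcription factor genes known to act on MMP promoters, 16 were measured, and 14 were above the floor on both arrays and within 2-fold. The other 2, FOS and FOSB, were under the floor on the S100A7 array and had only lower bounds. FOS read 44.6 on the S100A7 array and 128 on the vector array, at least 1.85-fold lower, and FOSB read 5.64 on the S100A7 array and 75.7 on the vector array, at least 1.10-fold lower. The median log2 ratio of the 16 was -0.10, with 7 above 0 and 9 below. The other AP-1 genes listed were on both sides of 0 with their brightest probe sets. Their log2 ratios were -0.19 for JUN, -0.26 for FOSL1, -0.14 for JUNB, 0.03 for FOSL2 and 0.16 for JUND. STAT3 read 5688 on the S100A7 array and 3558 on the vector array with its brightest probe set, a log2 ratio of 0.68, and its 3 other probe sets ran from -0.10 to 0.56. RELA, an NF-kB subunit, had log2 ratios of 0.60 and 0.31 with its 2 probe sets. NFKB1, the other NF-kB subunit listed, went the other way, at 1574 on the S100A7 array and 1928 on the vector array, a log2 ratio of -0.29. The factors named in this paragraph were named after their values were seen, and RNA levels of a factor do not show its activity.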

How the data were processed

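Total RNA of the S100A7-transfected cells and of the vector cells was hybridised to 1 Affymetrix GeneChip each. The authors deposited 1 intensity per probe set, made with MAS5 per the submitters' processing notes. Its version, its scaling target and any present or absent calls were not stated in the sources used here. Both arrays had a trimmed mean of 500.1 (2% taken off either end), and the deposited intensities were used as scaled. A line on embryos in the label of the S100A7 sample cannot refer to a cell line and was ignored. The number of unused value columns was 0.

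The platform annotation, with symbols updated through Entrez identifiers, paired 41097 probe sets with 1 gene, 1801 with several and 11721 with none, beside 62 control probe sets; 41043 matched RefSeq genes (GRCh38.p14). Probe sets with several genes or none were left out of gene counts. Each gene was represented by its measured probe set of the highest mean log2 intensity after the floor, and 12688 genes (24438 probe sets) were measured. Ratios are the S100A7 array over the vector array. The number of arrays limits the precision. All 10 members were named with every probe set; from the other lists the rule named genes at least 2-fold apart, and any other gene named was chosen after its values were seen, as the text says. The members and lists were chosen with earlier results of these data known.

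Alternatives were other scalings, floors, probe set rules and thresholds, a pseudocount of 32 and subtraction of the median of 40 chromosomal neighbours. The counting was tested on simulated data with changes of at least 3-fold in genes well above the floor. It therefore does not cover calls near the floor or near 2-fold. Python 3.11.15, numpy 2.4.6, pandas 2.3.3 and matplotlib 3.10.9 were used.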

Additional observations from a re-analysis of the deposited data

How the results depend on the processing

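No paired analysis was possible because each group had 1 array. With 0 replicates, the size of each ratio is known only for these arrays. MMP1 was at least 2-fold higher in all 11 alternatives, 3-fold included, with log2 ratios from 1.66 to 1.89. MMP9 was called in each alternative but 2: the floor at the 70th percentile, where its ratio became a lower bound of 0.68 and 1 member was higher, and the exclusion of the suffixes _s_at and _x_at, which removed its probe set and again left 1 member higher. That exclusion also removed TIMP3 and moved the median log2 ratio of the members to -0.59. With the floor at the 30th percentile 3 of 8 measured members were higher, MMP2 being added. Over all measured genes 679 were higher there, against 228 with the main floor. With no floor 4 of 10 members were higher, MMP2 and MMP13 being added, beside 1911 of all 19775 genes. The added members had intensities under the 50th percentile. The members' median was 0.53 and 0.61 in these settings, against 0.30. The call of MMP3 was lost, leaving 0 members lower, with median centring, the floor at the 70th percentile (where MMP3 was no longer measured), the pseudocount of 32, subtraction of the neighbours' median and the 3-fold threshold; its log2 ratios ran from -1.05 to -0.86. At 1.5-fold 3 members were lower. TIMP1 moved to -0.21 relative to its neighbours. Over the 12688 measured genes, 228 were at least 2-fold higher and 286 lower. These counts were 679 and 979 with the floor at the 30th percentile, 99 and 88 at the 70th, and 1911 and 2387 with no floor. A change of floor also changed how many genes were measured, so these counts are not shares of 1 total. With the main floor, the counts were 1030 and 1275 at 1.5-fold and 47 and 55 at 3-fold. Signals near the floor limit MMP2, MMP3, MMP9, MMP10 and MMP13.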
